A study of Mus musculus with 6 samples.

Results

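Pan-neuronal genes are the genes that nearly every neuron transcribes and most other cells keep off. The set described here holds 46 genes listed under that name, out of 54532 gene entries in the deposited table, and all 46 were found by symbol. The name does not describe each of them strictly, and some were abundant in the tissue sequenced here, as given below. RNA was sequenced from heart ventricles of mouse embryos at E12.5. There were 3 libraries of an LSD1 conditional knockout (genotype LSD1-KO, titles LSD1CKO) and 3 control libraries (genotype CTL). The labels give no Cre driver, no targeted cell type and no control genotype beyond CTL, and they do not say whether the libraries of a group came from separate embryos, so p-values measure the spread between these libraries, which may be technical. The question asked here is which of the 46 genes stayed silent in ventricles with less LSD1 and which did not.

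LSD1, the product of Kdm1a, is a histone demethylase that removes methyl groups from lysine 4 of histone H3. It works in the CoREST complex with histone deacetylases, and the zinc-finger repressor REST recruits that complex to a DNA element called RE1, which lies in or near many neuronal genes. In cells outside the nervous system this machinery is known to hold neuronal genes off. The 46 genes fall by role into cytoskeletal and axon growth proteins (12), RNA-binding proteins (5), dense-core granule and secreted proteins (6), synaptic vesicle release proteins (10), receptors, channels and transmitter synthesis (6), and adhesion, endosomal and other proteins (7).

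RefSeq promoter windows of GRCm38.p6 were at hand for 31 of the 46 genes. Each window ran from 250 bases before the start to a short stretch after it. The whole windows were searched on both strands for the core of RE1, which is AGCACC, then any 2 bases, then GGACAG. Gria2, which encodes a subunit of AMPA-type glutamate receptors, was the only one of the 31 with the exact core, against 0.0592% of all 27025 genes in the promoter table. Syn1, which encodes the vesicle protein synapsin I, held the core with 1 mismatch; with 1 mismatch allowed, 0.411% of all genes in that table had a match. Uchl1, a ubiquitin hydrolase abundant in neurons, had no match and is shown because it was the only one of the 46 called changed below. The 250 bases before each start are printed with the core in capitals. The Gria2 core lies on the opposite strand, 170 to 157 bases before the start, and the Syn1 core on the gene's strand, 229 to 216 bases before the start. The printed parts of the windows are Gria2 at chr3:80802836-80803085 on the minus strand, Syn1 at chrX:20920919-20921168 on the minus strand and Uchl1 at chr5:66675871-66676120 on the plus strand.
Gria2: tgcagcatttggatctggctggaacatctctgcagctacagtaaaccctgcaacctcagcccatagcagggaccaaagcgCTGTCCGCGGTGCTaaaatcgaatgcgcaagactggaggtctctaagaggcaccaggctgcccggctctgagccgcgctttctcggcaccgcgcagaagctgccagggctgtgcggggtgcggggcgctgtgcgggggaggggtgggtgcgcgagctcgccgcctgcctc
Syn1: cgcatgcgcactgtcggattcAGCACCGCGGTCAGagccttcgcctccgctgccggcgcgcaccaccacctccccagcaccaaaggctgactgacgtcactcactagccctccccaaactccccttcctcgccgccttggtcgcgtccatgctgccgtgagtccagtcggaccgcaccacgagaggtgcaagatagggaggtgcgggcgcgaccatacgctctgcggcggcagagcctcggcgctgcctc
Uchl1: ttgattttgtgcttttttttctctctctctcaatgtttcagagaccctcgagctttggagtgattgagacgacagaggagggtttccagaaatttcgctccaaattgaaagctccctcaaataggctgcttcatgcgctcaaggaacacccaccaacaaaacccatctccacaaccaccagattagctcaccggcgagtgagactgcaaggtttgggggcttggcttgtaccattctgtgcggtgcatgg
The shorter stretch CAGCACC, the left arm of the core with 1 base before it, stood in the windows of 6 of the 31 genes (Chgb, Nsg2, Scg2, Syn1, Tubb3 and Unc13a), against 8.14% of all genes, and GGACAG, the right arm, in 11 of the 31, against 24.7% of all genes. Each arm was counted wherever it stood in the window, inside a full core or alone. The CAGCACC of Unc13a and the GGACAG of Camk2b, Celf3 and Tubb3 stood after the start. The content of G and C in these 250 bases varied widely among the 31 genes, with a median of 61.6% (range 43.2% to 81.2%), against a median of 52.4% over all genes of the table (quartiles 45.2% and 60.8%). Uchl1, at 48.8%, lay below the median of all genes. A match describes letters in the window and is not a measured binding site.

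The libraries held 17896745 to 20073984 reads, recovered from the steps of the FPKM values (fragments relative to transcript length and sequencing depth). Genes averaging 0.5 FPKM or more over the 6 libraries numbered 14149, and in the knockout 270 of them rose (1.91%) while 66 fell (0.466%), 2.37% either way (limma on log2(FPKM + 1), Benjamini-Hochberg adjusted p under 0.05). Cardiomyocyte genes were abundant in all libraries: Tnnt2, cardiac troponin T, stood at 382 to 414 FPKM in knockout and 393 to 453 FPKM in control ventricles, and 0 of 8 cardiomyocyte markers were called by limma (0 had an unadjusted p under 0.05, and voom on recovered reads also called 0). Markers of endothelium (6), epicardium (5), erythroid cells (5) and macrophages (4 of 5 tested) also had 0 called by limma or voom, with 1, 0, 0 and 1 at an unadjusted p under 0.05. Their median log2 changes were 0.20, 0.02, 0.13 and 0.06, against -0.01 over all tested genes. In that order, 6, 5, 3 and 3 of the tested markers were fitted above 0, beside 45.9% of all tested genes. Knockout replicate 3 had 12.1 FPKM of Xist and 0 FPKM of the Y-linked gene Ddx3y, and knockout replicate 1 had 1.11 FPKM of Xist beside 14.3 FPKM of Ddx3y, whereas the other 4 libraries had at most 0.0125 FPKM of Xist and at least 13.0 FPKM of Ddx3y. Sex thus differed among the knockout libraries, which were not all repeats of 1 embryo, while all control libraries had the male pattern. Among the 46 genes, L1cam, Syn1 and Dcx are X-linked. Knockout replicate 1 also stood apart in neural crest genes, and Uchl1 and L1cam are given below with and without knockout replicates 1 and 3.

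Kdm1a was lower and its partners were not called. Kdm1a had 10.7, 11.8 and 11.0 FPKM in the knockout libraries, against 30.0, 29.7 and 22.8 FPKM in the control libraries, so the groups did not overlap (log2 change -1.22, SE 0.11, limma adjusted p = 0.00274). Rest had 6.18, 6.77 and 7.12 FPKM in knockout and 6.23, 5.63 and 7.70 FPKM in control ventricles, with overlapping groups (log2 change 0.04, limma adjusted p = 0.896). Of 23 genes of REST, CoREST and associated corepressors, all tested, 0 rose and 1 fell, beside 1.91% and 0.466% of all tested genes. The gene that fell was Kdm1a itself. The median log2 change of the 23 was -0.01, against -0.01 over all 14149 tested genes. Voom on recovered reads likewise called Kdm1a alone in that list. An exact two-sided permutation test of 3 against 3 libraries cannot go below p = 0.1, the value it gave for Kdm1a.

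Most pan-neuronal genes were at or near silence in both groups. Of the 46, 33 had a mean under 0.5 FPKM over the 6 libraries, and 27 were under 0.5 FPKM in each of the 6. Counted by library, 15, 14 and 13 of the 46 reached 0.5 FPKM in knockout replicates 1, 2 and 3, against 13, 16 and 14 in control replicates 1, 2 and 3. These counts overlap between the groups. A total of 11 genes stayed under 0.1 FPKM in each library, and the 33 low genes together summed to 5.89, 5.04 and 4.69 FPKM in knockout and 3.95, 4.81 and 4.76 FPKM in control libraries. A total of 13 genes were at or above 0.5 FPKM in all 6 libraries, and these 13 were the genes tested. The remaining 6 crossed 0.5 FPKM in some libraries only. Camk2b did so in knockout replicates 1 and 2, and L1cam in knockout replicate 1 alone. Syn2, Elavl4 and Cplx1 did so in control replicate 2 alone (0.560, 0.501 and 0.513 FPKM), and Stmn2 in control replicate 3 alone (0.527 FPKM). The genes nearest to the threshold of 0.5 FPKM were Rundc3a above it, with a mean of 0.849 FPKM, and Syn2 below it, with a mean of 0.427 FPKM. In whole ventricles, fewer cells of a type and less RNA per cell cannot be told apart.

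**Figure D1:**
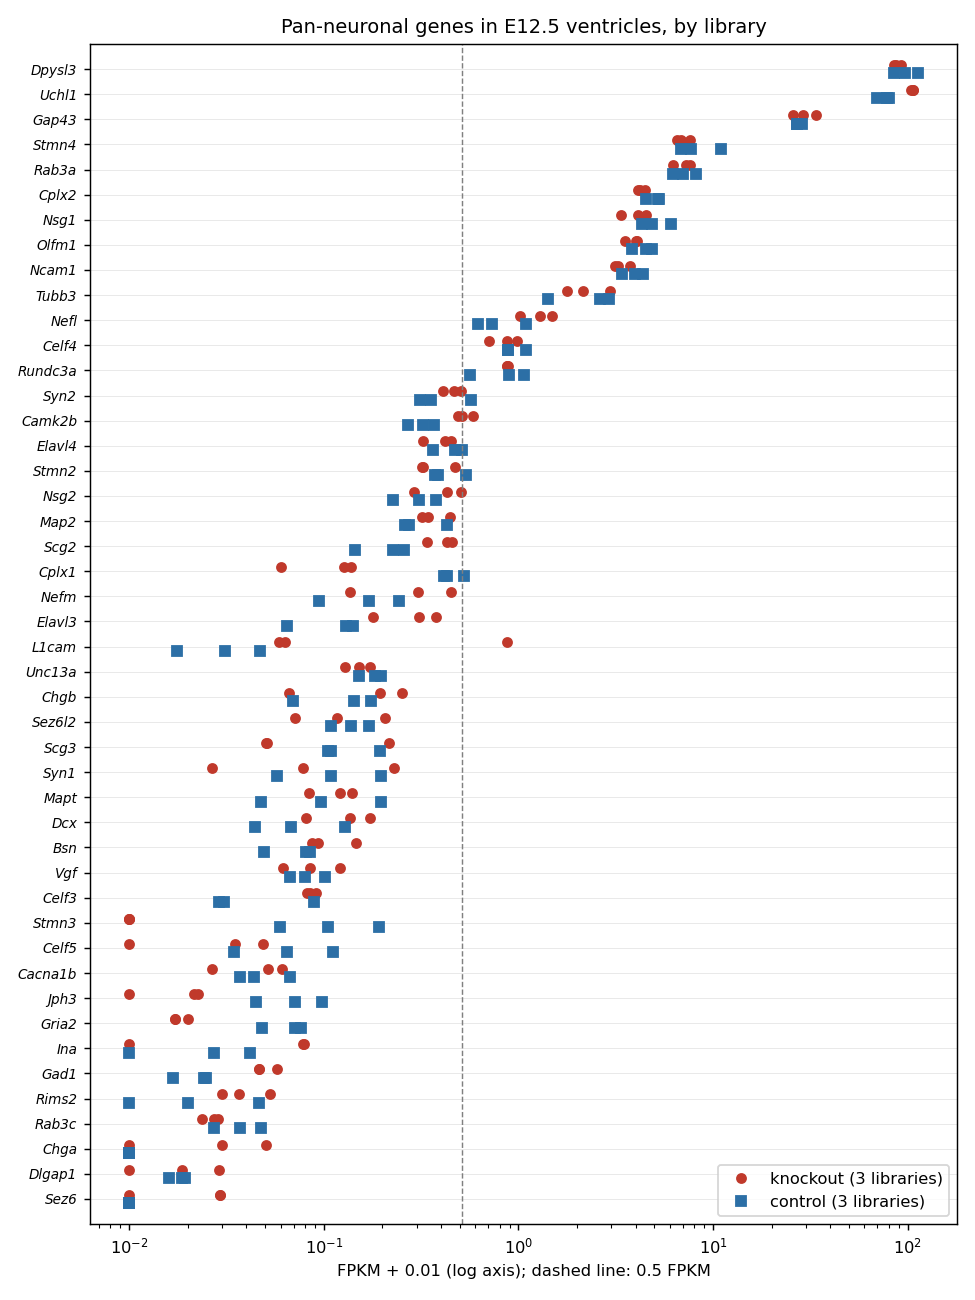
FPKM + 0.01 on a log axis for each of the 46 genes, ordered by mean level, with 3 knockout libraries (circles) above 3 control libraries (squares) in each row and a dashed line at 0.5 FPKM. The points of 33 genes average under the line, and the groups lie apart in some rows, among them Uchl1, Camk2b, Cplx1 and Gria2.

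Among the 13 tested genes 1 rose and 0 fell, beside 1.91% and 0.466% of all genes tested (2.37% either way). The median log2 change of the 13 was -0.08, against -0.01 over all tested genes, and 5 of the 13 had a fitted change above 0, beside 45.9% of all tested genes. An unadjusted p under 0.05 was found for 3 of the 13, beside 16.1% of all tested genes. The knockout and control libraries did not overlap for 2 of the 13 (Uchl1, higher, and Cplx2, lower), beside 11.0% higher and 10.4% lower, 21.4% in all, of tested genes. The 95% interval of each of the 13 log2 changes lay between -1 and 1 on the log2(FPKM + 1) scale, a scale that understates the change of genes near 1 FPKM.

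**Figure D2:**
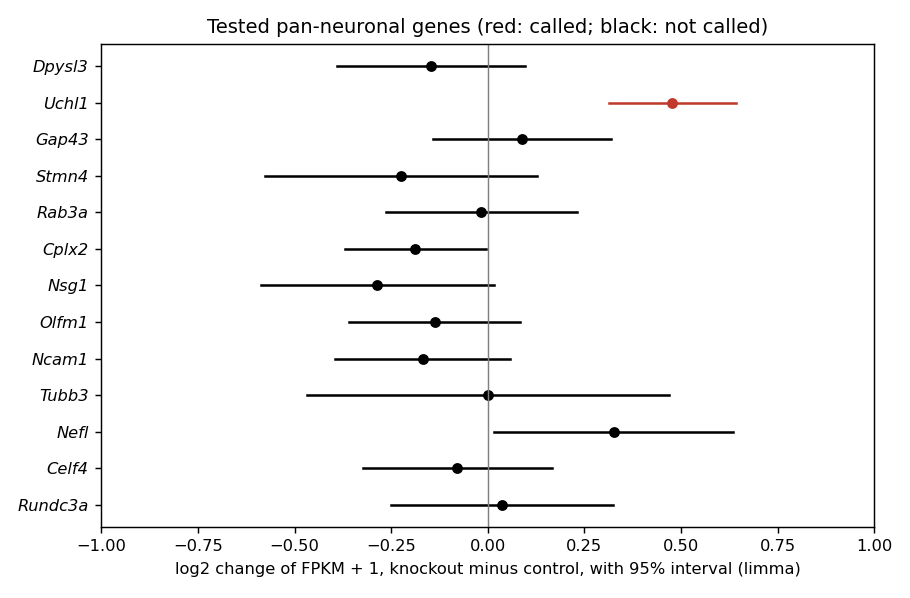
Log2 change of FPKM + 1, knockout minus control, for the 13 tested genes with the 95% interval from limma (3 libraries per group). The interval of Uchl1 (0.31 to 0.64) lies farthest above 0, and those of 10 genes cross 0.

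Uchl1 was the gene that rose. It encodes ubiquitin C-terminal hydrolase L1, one of the most abundant proteins of neurons, and it was far from silent in control ventricles. Uchl1 had 107, 105 and 106 FPKM in the knockout libraries, against 78.1, 80.1 and 70.0 FPKM in the control libraries. Each knockout library stood above each control library, with means of 106 ± 1.25 FPKM and 76.0 ± 5.33 FPKM (SD, n = 3 each), and the knockout mean was 1.39 times the control mean (limma adjusted p = 0.0165, log2 change 0.48, SE 0.07). Uchl1 spans chromosome 5, bases 66676091 to 66687234, plus strand, in GRCm38 (mm10). The antisense gene Uchl1os covers 18.1% of its exon bases, and the library kit does not mark strand. Uchl1os was listed at no more than 0.0257 FPKM in any library. The part of reads over the shared bases in the Uchl1 values was not tested. The call was lost without knockout replicate 1 (limma adjusted p = 0.071), without knockout replicate 2 (0.0752), without knockout replicate 3 (0.075) and without control replicate 1 (0.0539), while the log2 change stayed between 0.42 and 0.52 in all 6 fits that left out a library.

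Cytoskeletal and axon growth genes ranged from nearly silent to abundant, and 0 of the 5 tested were called by limma, beside 2.37% of all tested genes. At that share, 0 calls among the few tested genes of a role, here and below, say little about the role. Dpysl3, a collapsin response mediator protein of growing axons that other embryonic cells also make, had 86.8, 92.4 and 85.5 FPKM in knockout libraries and 97.1, 113 and 85.2 FPKM in control libraries. The groups overlapped (log2 change -0.15, 95% interval -0.39 to 0.10, limma adjusted p = 0.537). Gap43, a growth cone protein, had 34.0, 28.9 and 25.8 FPKM in knockout libraries, against 28.8, 26.9 and 27.1 FPKM in control libraries. Its highest value was in knockout replicate 1, and its interval ran from -0.14 to 0.32 (limma adjusted p = 0.717). Stmn4, a microtubule-destabilizing protein of the stathmin family, had 6.87, 7.58 and 6.55 FPKM in knockout and 11.0, 7.68 and 6.81 FPKM in control libraries, with control replicate 1 above the other 5 (limma adjusted p = 0.513). Tubb3, the neuronal beta-tubulin, had 2.93, 1.77 and 2.13 FPKM in knockout libraries and 2.90, 1.41 and 2.61 FPKM in control libraries, a complete overlap (log2 change 0.00, 95% interval -0.47 to 0.47).

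The means of both neurofilament genes were higher in the knockout, with no call. Nefl, the light neurofilament chain, had 1.47, 1.28 and 1.01 FPKM in knockout libraries, against 0.609, 1.08 and 0.72 FPKM in control libraries, a ratio of mean levels of 1.56 (log2 change 0.33, limma adjusted p = 0.286). Control replicate 2 overlapped the knockout range. Nefm, the medium chain, averaged 0.287 ± 0.157 FPKM in knockout and 0.160 ± 0.0745 FPKM in control ventricles (SD, n = 3 each) and was too low to be tested. These neighbouring genes of chromosome 14 share exon bases on opposite strands (32.8% of Nefl and 19.2% of Nefm), so reads there cannot be assigned to one of them. Other cytoskeletal genes stayed low: Stmn2 averaged 0.362 ± 0.0883 and 0.422 ± 0.0915 FPKM in knockout and control ventricles (SD, n = 3 each), and the microtubule proteins Map2, Mapt and Dcx, like the filament gene Ina, had knockout means of 0.359, 0.105, 0.120 and 0.0458 FPKM, against control means of 0.312, 0.103, 0.0703 and 0.0164 FPKM.

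RNA-binding proteins of neurons stayed low, with 1 of 5 tested and 0 called by limma. Celf4, a regulator of splicing and translation, was the tested one, at 0.974, 0.859 and 0.698 FPKM in knockout and 0.877, 0.877 and 1.08 FPKM in control libraries (log2 change -0.08, 95% interval -0.32 to 0.17, limma adjusted p = 0.768). Both Hu protein genes were too low for the main test. Elavl4 (HuD) averaged 0.388 ± 0.0679 FPKM in knockout and 0.438 ± 0.0771 FPKM in control ventricles (SD, n = 3 each), with overlapping groups. Elavl3 (HuC) had 0.169, 0.299 and 0.366 FPKM in knockout libraries, against 0.055, 0.131 and 0.120 FPKM in control libraries, each knockout value above each control value. That rests on 106 reads in the knockout group and 39 in the control group. Celf3 and Celf5 had at most 8 and 12 reads in any library.

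Dense-core granule and secreted proteins had 1 tested gene and 0 called. Olfm1, which encodes the secreted glycoprotein olfactomedin 1, had 3.54, 4.08 and 4.03 FPKM in knockout and 4.50, 4.84 and 3.81 FPKM in control libraries (log2 change -0.14, limma adjusted p = 0.523). The granins package peptides and amines in secretory granules. Of these, Scg2 had 0.418, 0.328 and 0.445 FPKM in knockout libraries, against 0.215, 0.134 and 0.247 FPKM in control libraries, with no overlap, on 55 and 28 reads in all. Chgb, Scg3 and the neurotrophin-induced gene Vgf overlapped, with knockout means of 0.161, 0.0961 and 0.0797 FPKM and control means of 0.119, 0.126 and 0.0725 FPKM. Chga, a classical neuroendocrine marker, had 3 reads in the 3 knockout libraries together and 0 in the control libraries, and no library reached 3 reads.

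Genes of synaptic vesicle release had 3 of 10 tested and 0 called. Rab3a, the vesicle GTPase, had 7.58, 7.22 and 6.24 FPKM in knockout and 7.03, 8.13 and 6.21 FPKM in control libraries (log2 change -0.02, 95% interval -0.26 to 0.23, limma adjusted p = 0.957). Complexins clamp and promote fusion of vesicles by binding the SNARE complex, and both lay lower in the knockout. Cplx2 had 4.11, 4.44 and 4.23 FPKM in knockout libraries, against 5.21, 4.49 and 5.29 FPKM in control libraries, a narrow separation (log2 change -0.19, SE 0.08, limma adjusted p = 0.302). Cplx1 had 0.0506, 0.118 and 0.128 FPKM in knockout libraries, against 0.421, 0.513 and 0.402 FPKM in control libraries. The ratio of the Cplx1 means was 0.222, and each control library had at least 17 reads where no knockout library had more than 5.

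The other release genes overlapped, apart from Bsn. Rundc3a, an effector of Rap2 small GTPases, averaged 0.867 ± 0.00868 FPKM in knockout and 0.832 ± 0.255 FPKM in control ventricles (SD, n = 3 each; limma adjusted p = 0.918). Bsn, the active zone scaffold bassoon, had 0.0833, 0.136 and 0.0773 FPKM in knockout libraries, against 0.0748, 0.0705 and 0.0390 FPKM in control libraries. The lowest knockout and highest control values of Bsn were close. Syn2 averaged 0.451 and 0.402 FPKM in knockout and control ventricles, Unc13a, a vesicle priming factor, 0.141 and 0.167 FPKM, and Syn1 0.101 and 0.111 FPKM. Rims2 and Rab3c had at most 8 reads in any library.

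Receptors, channels and transmitter synthesis held no tested gene, and voom on recovered reads called 0 of them. Camk2b, a subunit of the calcium/calmodulin-dependent kinase II, had 0.576, 0.503 and 0.479 FPKM in knockout libraries, against 0.261, 0.357 and 0.312 FPKM in control libraries. It was the only one of the 46 with a knockout mean of at least 0.5 FPKM (0.519) and a control mean below it (0.310), where 5.05% of all genes with a control mean above 0 and under 0.5 FPKM crossed that level. Gad1, the GABA-synthesizing enzyme, had 5, 7 and 5 reads in knockout libraries and 2, 2 and 1 reads in control libraries. Gria2, whose promoter window holds the exact RE1 core, lay lower in the knockout: 0.00712, 0.00994 and 0.00720 FPKM (2, 3 and 2 reads), against 0.0383, 0.0614 and 0.0666 FPKM (11, 17 and 20 reads) in control libraries. Jph3, a junctophilin of brain that ties the plasma membrane to the endoplasmic reticulum, had 2 reads in the knockout group and 15 in the control group. The calcium channel gene Cacna1b and the postsynaptic scaffold gene Dlgap1 overlapped, at no more than 11 and 6 reads in a library.

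Adhesion and endosomal genes other than Uchl1 were not called. Ncam1, the neural cell adhesion molecule, had 3.12, 3.24 and 3.74 FPKM in knockout and 3.41, 3.98 and 4.34 FPKM in control libraries (log2 change -0.17, 95% interval -0.40 to 0.06, limma adjusted p = 0.44). Nsg1, a neuronal endosomal protein with 17.9% of its exon bases under Stx18, had 3.36, 4.09 and 4.49 FPKM in knockout libraries, against 4.85, 4.30 and 6.11 FPKM in control libraries (log2 change -0.29, limma adjusted p = 0.337). Its paralog Nsg2 averaged 0.398 ± 0.110 FPKM in knockout and 0.293 ± 0.0745 FPKM in control ventricles (SD, n = 3 each). Of the seizure-related genes, Sez6l2 averaged 0.122 and 0.129 FPKM in knockout and control ventricles, and Sez6 had 4 reads in the knockout group and 0 in the control group.

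Among those of the 46 genes with reads in both groups, L1cam had the largest ratio of means, and that ratio rested on 1 library. L1cam, an axonal adhesion molecule that neural crest and Schwann lineage cells also make, had 0.859 FPKM in knockout replicate 1 (114 reads) and 0.0491 and 0.0533 FPKM in knockout replicates 2 and 3, against 0.0369, 0.00765 and 0.0212 FPKM in control libraries. Knockout replicate 1 also had the highest level of 9 of 12 neural crest and Schwann precursor markers. Ednrb, S100b and Dhh were not highest there, and S100b was at 0 FPKM in it. Sox10, the crest transcription factor, stood there at 5.24 FPKM, against at most 0.611 FPKM in the other 5 libraries, and Foxd3 at 1.98 FPKM, against at most 0.0669 FPKM. The summed level of the 12 markers was 47.2 to 56.2 FPKM in knockout and 30.2 to 48.3 FPKM in control ventricles, most of it Ednrb, an endothelin receptor. Without Ednrb the other 11 summed to 19.3, 4.94 and 5.81 FPKM in knockout replicates 1, 2 and 3. The control libraries had 5.37, 5.16 and 6.43 FPKM, so in this sum knockout replicate 1 alone stood above the control range. Sox2, a low gene of this list, had 0.430, 0.301 and 0.299 FPKM in knockout libraries, against 0.158, 0.109 and 0.0504 FPKM in control libraries. Its groups did not overlap, as in 5.54% of all genes above 0 with a mean under 0.5 FPKM with the knockout higher. Foxd3 was at 0 in 4 libraries, and 0 of the 6 tested markers were called by limma (0 with an unadjusted p under 0.05, 0 by voom). All 6 were fitted above 0, beside 45.9% of all tested genes. Their median log2 change was 0.33, against -0.01 over all tested genes. Of the 6 too low for the main test, 4 had a higher and 2 a lower mean in the knockout. The ratio of the L1cam means was 14.6 with all libraries, 2.34 without knockout replicate 1 and 20.7 without knockout replicate 3, and the part of crest cells in it was not tested. Knockout replicate 1 was the highest library for 13 of the 46 pan-neuronal genes and for 16.0% of all genes above 0.

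**Figure D3:**
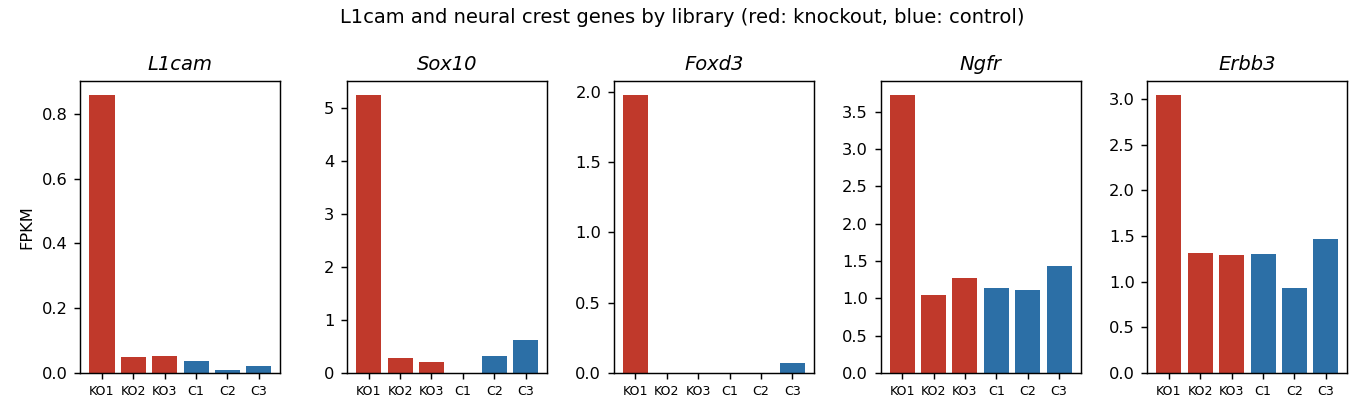
FPKM of L1cam and 4 neural crest genes in each library, knockout replicates 1 to 3 (KO1 to KO3, red) and control replicates 1 to 3 (C1 to C3, blue), each panel from 0. Knockout replicate 1 stands above the other 5 libraries in all 5 panels.

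Most markers of cardiac ganglion neurons were low. Of 17 such genes, which include Stmn2, Elavl4 and Tubb3 of the 46, 4 were tested and 0 were called by limma (0 had an unadjusted p under 0.05, 0 by voom). The summed level of the 17 was 57.3 to 59.5 FPKM in knockout and 58.0 to 63.7 FPKM in control ventricles, of which Hand2, which heart muscle also makes, took 51.9 to 54.8 FPKM in knockout and 52.6 to 57.5 FPKM in control libraries. Without Hand2 the other 16 summed to 4.69 to 5.96 FPKM in knockout and 4.73 to 6.16 FPKM in control libraries. For 2 of the 13 markers too low for the main test, all knockout values were under all control values, and for 0 they were above. Over all genes above 0 with a mean under 0.5 FPKM these shares were 3.02% and 5.54%. The list as a whole was mixed, as 5 of the 13 had a higher and 8 a lower mean in the knockout. Isl1, a LIM homeodomain factor that cardiac progenitors also make, had 0.238, 0.143 and 0.410 FPKM in knockout libraries, against 0.452, 0.653 and 0.811 FPKM in control libraries (57 and 141 reads, voom adjusted p = 0.0985). Dbh, the noradrenaline-synthesizing enzyme, had 0.123, 0.0191 and 0.125 FPKM in knockout libraries, against 0.161, 0.376 and 0.327 FPKM in control libraries (13 and 43 reads, voom adjusted p = 0.237). Isl1 and Dbh, like Cplx1, Gria2 and Jph3 of the 46, were picked out because all their knockout values were under all control values. That they lay lower in the same libraries follows from this choice. The part of ganglion neurons in the values of Cplx1, Gria2 and Jph3 was not tested. Chrna3, Chat and Slc18a3, genes of cholinergic neurons, were at 0 in most libraries.

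Genes too low for the main test were read at the level of their reads. Of the 33, all above 0, 20 had a higher and 13 a lower mean in the knockout, beside 55.2% higher over the 11807 genes in that range. The groups did not overlap for 10 of the 33, with 6 higher (Camk2b, Scg2, Elavl3, L1cam, Bsn and Gad1) and 4 lower (Cplx1, Gria2, Jph3 and Stmn3) in the knockout, beside 5.54% and 3.02%, 8.56% in all, of the genes in that range. Those genes were not matched to the 33 in their number of reads. Counting error alone gave exact 95% intervals of the ratio of reads, knockout over control, of 1.37 to 2.05 for Camk2b, 1.23 to 3.23 for Scg2, 1.87 to 4.05 for Elavl3 and 1.21 to 11.8 for Gad1. On the lower side they were 0.109 to 0.422 for Cplx1, 0.0559 to 0.325 for Gria2 and 0.0149 to 0.576 for Jph3. Stmn3, a stathmin of neurons, had 0 reads in the 3 knockout libraries and 2, 1 and 4 in the control libraries, with an upper limit of the ratio of 0.697. These intervals leave out the variation between libraries. They are given for genes picked because their groups did not overlap in these same reads, so they are not separate support. The intervals of Nefm (1.27 to 2.6), Dcx (1.17 to 2.44) and Celf5 (0.141 to 0.851), whose groups overlapped, did not include 1 either.

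**Figure D4:**
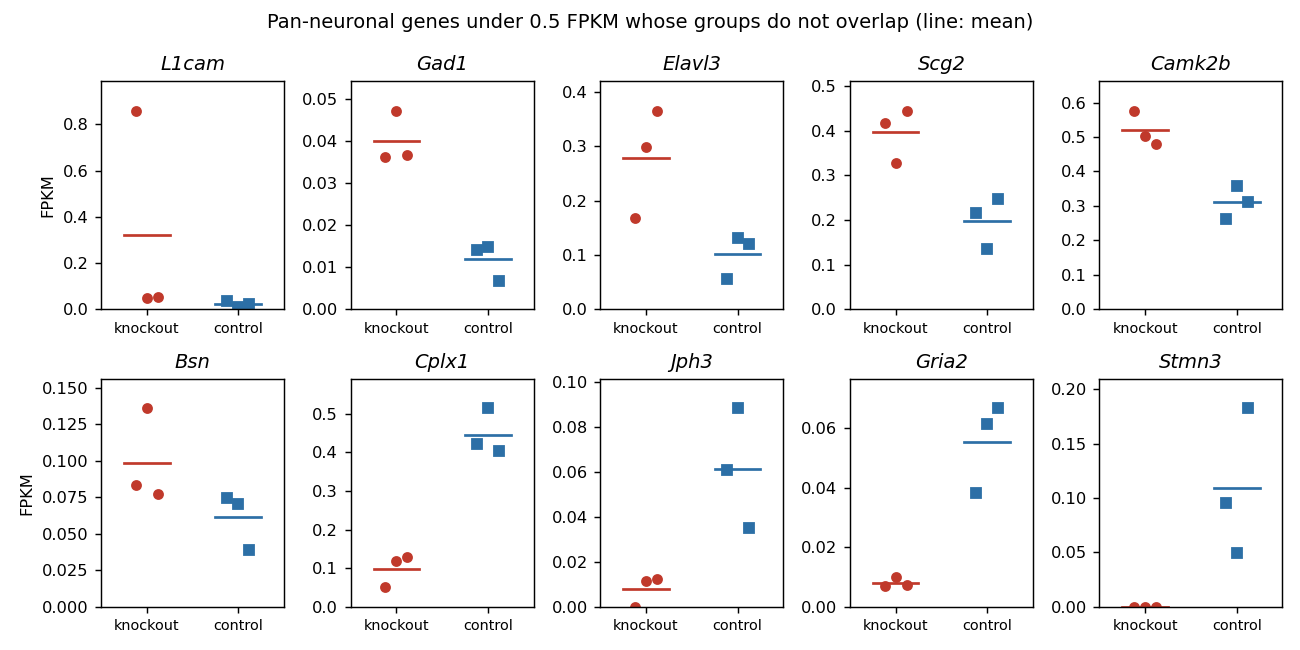
FPKM by library for the 10 genes under a mean of 0.5 FPKM whose groups do not overlap, knockout left of control, each panel from 0 with the group mean as a line. The 6 genes from L1cam to Bsn lie higher and the 4 genes from Cplx1 to Stmn3 lower in the knockout, and the L1cam mean is set by 1 library.

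A fit that keeps low genes gave no further call. With limma voom on recovered reads, for all genes with 10 or more reads over the 6 libraries, 43 of the 46 could be fitted, 1 rose (Uchl1) and 0 fell, beside 2.32% and 0.589%, 2.91% in all, of the 19526 genes fitted, and 9 of the 43 had an unadjusted p under 0.05, beside 15.1%. The smallest adjusted p-values after Uchl1 (0.00195) were those of Gria2 (0.0686; log2 change -2.51, 95% interval -3.98 to -1.04), Cplx1 (0.0799; -2.11, -3.38 to -0.84), Camk2b (0.10; 0.75, 0.27 to 1.22) and Elavl3 (0.138; 1.43, 0.44 to 2.43). For 5 of the 30 fitted genes under 0.5 FPKM the interval lay within -1 and 1, so at this depth a change of 2-fold was not excluded for most of them. This fit was chosen after the data were seen.

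Some neuronal genes outside the 46 rose. Of 61 such genes 25 were tested, 8 rose and 0 fell, beside 1.91% and 0.466% of all tested genes, with a median log2 change of 0.17, against -0.01 over all tested genes. The difference from the 46 was not tested, and earlier results of these data were known when that list was drawn up. Syngr3, which encodes a membrane protein of synaptic vesicles, had 2.54, 3.16 and 1.51 FPKM in knockout libraries, against 0.0262 to 0.0543 FPKM in control libraries (limma adjusted p = 0.00582). Gng3, a gamma subunit of neuronal G proteins with 24.2% of its exon bases under other genes, had 3.71, 3.82 and 2.67 FPKM in knockout and 0.159, 0.695 and 0.305 FPKM in control libraries (limma adjusted p = 0.00425). In each of these genes the lowest knockout library stood well above the highest control library. Scg5, Kif1a, Syt11, Cend1 and Dpysl5 were also among those called. Dpysl5, of the family of Dpysl3, averaged 3.93 ± 0.0956 FPKM in knockout and 2.22 ± 0.289 FPKM in control ventricles (SD, n = 3 each; limma adjusted p = 0.013). Without knockout replicate 2, or without knockout replicate 3, 5 of these genes were called.

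**Figure D5:**
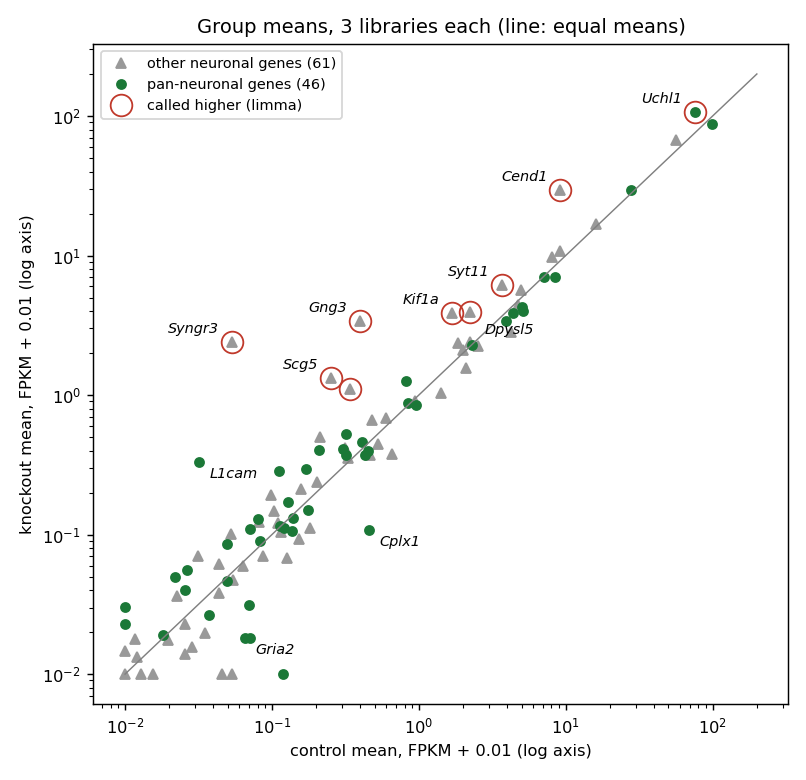
Knockout mean against control mean, FPKM + 0.01 on log axes (3 libraries each), for the 46 pan-neuronal genes (circles) and 61 other neuronal genes (triangles), with genes called higher ringed. Uchl1 is the only ringed gene of the 46, beside 8 ringed triangles, while L1cam lies above and Cplx1 and Gria2 lie below the line of equal means without a call.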

How the data were processed

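Libraries (3 knockout, 3 control) were grouped by their descriptions. TRIzol extraction and the NEBNext Ultra RNA kit, a kit without strand marks, are given per the labels' protocols. The authors deposited FPKM values for 54532 genes. The build mm10 and the tools featureCounts 1.5.0-p3, HISAT2 2.0.5, fastp and CASAVA are listed in the submitters' processing notes; the annotation release is not given in the sources used here. Symbols and exon lengths came from GENCODE M21 (54409 IDs matched; of IDs sharing a symbol the highest was kept). Whole reads were recovered by dividing FPKM times exon length by the value of 1 read, which put 98.2% to 98.5% of genes under 25 reads within 0.02 of a whole number; the implied totals, divided by median-of-ratios size factors, were equal to 3 digits, so the FPKM appear scaled by such factors. Counting intervals and floors of 3 reads (0.155 to 0.169 FPKM in a gene of 1 kb) cover counting error only, at 95%.

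The main test was limma 3.58.1 (R 4.3.3; trend on, genotype alone in the model, two-sided) on log2(FPKM + 1) of genes averaging 0.5 FPKM or more, p adjusted over all 14149 genes; fold changes on this scale understate the change of low genes. The fit was run on simulated data that gave every gene the same spread beyond counting error. That run does not measure how well the fit finds changes in the real libraries. Other steps used Python 3.11.15, pandas 2.3.3 and numpy 2.4.6. Every one of the 46 genes is reported, with values per library where called or among the most expressed, and of other lists called genes and the markers Sox10 and Tnnt2; some genes that this rule takes are not reported here. Low genes shown by library, and Foxd3, Ngfr, Erbb3, Ednrb, Hand2, Isl1, Dbh, Chrna3, Chat and Slc18a3, were chosen after their values were seen. The same holds for Sox2, S100b and Dhh. The 46 genes, the other lists and the motif were chosen with earlier results of these data known. No library was a copy of another (median chi-square per gene of at least 1.73 between any 2 libraries). Alternatives covered the pseudocount, filters, scaling, voom, weights, a replicate block and leaving out each library.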

Additional observations from a re-analysis of the deposited data

How the results depend on the processing

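Among the 46 genes, Uchl1 was the 1 called in each fit with all 6 libraries, and 0 or 1 were called when 1 library was left out (Uchl1 log2 change 0.42 to 0.52; limma adjusted p = 0.00195 to 0.0752 over its 17 alternatives, 13 of them past the threshold). The count of all genes called (336; 270 higher, 66 lower) was 122 (110 and 12) without a filter, 511 (419 higher) by voom on recovered reads and 568 (453 and 115) by voom with 10 or more reads. The lower count was 40 after rescaling to TPM and 112 with library weights. Leaving out 1 library gave 134 to 381 (111 to 273 higher, 23 to 108 lower), with fewer samples. Of the other neuronal genes 5 to 8 were called higher when a library was left out. Whether the replicate numbers pair the libraries was not settled. The correlation of deviations was -0.0021, 0.14 and 0.164 for numbers 1, 2 and 3, against -0.189 to 0.0798 between different numbers. With so few libraries these values cannot decide it. With a replicate block 284 genes were called, and 1 of the 46.

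Directions near 0 turned: Rab3a to 0.0613 (TPM) and 0.0467 (scaling without haemoglobin and mitochondrial genes), Tubb3 to -0.0465 (quantile normalization), -0.0323 (library weights) and -0.00328 (voom, 10 or more reads), and Rundc3a to -0.0114 (quantile normalization). Leaving out 1 library gave log2 changes of -0.0136 to 0.178 for Gap43, -0.0995 to 0.0703 for Rab3a, -0.211 to 0.135 for Tubb3, -0.0769 to 0.125 for Rundc3a and -0.0462 to 0.15 for Rest. None of these was called under any setting; the cause was not tested. Depth limits the 33 genes under 0.5 FPKM, 15 of which had under 3 reads in at least 1 library.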
